A study of Homo sapiens with 6 samples.

Results

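The 30 genes described here encode 20 enzymes that build sterols, from acetyl-CoA to cholesterol, and 10 proteins that move, store or release cellular cholesterol. They were chosen by pathway membership, with earlier results of these data known. All 30 were found by symbol among the 61806 genes of the deposited table. Expression was measured by bulk RNA sequencing. The labels name the cells as HepG2, a human hepatoma cell line in wide use, and as CD133+, that is, carrying the surface protein encoded by PROM1 by which stem-like tumour cells are commonly sorted. Expression was compared between 3 libraries with LAPTM4B knocked down (titled shLAP) and 3 control libraries (titled NC, genotype WT). The LAPTM4B protein spans the membrane of late endosomes and lysosomes. Both groups carry the same cell line and CD133 labels. The labels do not say how the knockdown construct was delivered or whether the cells were clones or pools. Nor do they state that the 3 libraries of a group were separate cultures. The p-values therefore reflect the spread between these libraries alone, which may be technical. The libraries held 15204269 to 19987318 counts, so that 3 counts in a library correspond to 0.150 to 0.197 CPM (counts scaled to the library's total).

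LAPTM4B, the targeted gene, was lower in every knockdown library. Its mean level fell by 27.6%, and 16.9% of the genes tested had a lower log2 change than LAPTM4B. It had 72.0, 75.3 and 74.4 FPKM (fragments per kilobase of exon, scaled to the library's total count) in the knockdown libraries and 100.1, 100.2 and 106 FPKM in the control libraries (log2 change -0.53, SE 0.04, edgeR adjusted p 3.25e-12). The liver markers ALB, APOA1, APOB and APOH were without a single count in all 6 libraries and AFP had 0 to 4 counts, so the defining markers of HepG2 were absent or close to absent. Summed over 12 hepatocyte markers, the level was 1.79 to 2.04 FPKM in knockdown and 3.94 to 4.36 FPKM in control libraries. PROM1 had 6 to 12 counts in knockdown and 1 to 3 counts in control libraries, and was not tested. The cells are therefore called by their labels below, without a statement on their type. A list of 5 cholangiocyte markers, none of them at 0 in all libraries, summed to 67.2 to 69.5 FPKM in knockdown and 20.02 to 20.53 FPKM in control libraries, mostly KRT7 (63.9 ± 1.04 FPKM in knockdown and 9.48 ± 0.0651 FPKM in control libraries, mean ± SD, n = 3 each). Of its 3 tested genes KRT7 was higher, and 2 were lower, SOX9 (3.37 ± 0.315 FPKM in knockdown and 8.14 ± 0.0462 FPKM in control libraries) and EPCAM (1.09 ± 0.0917 FPKM in knockdown and 2.54 ± 0.367 FPKM in control libraries), so the list did not move as a whole. Fibroblast, endothelial and leukocyte lists each summed to at most 2.15 FPKM in any library. The part of these marker differences in the results below was not tested. In bulk libraries, fewer cells expressing a gene and less RNA per cell cannot be told apart.

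As background, animal cells make cholesterol in the endoplasmic reticulum from acetyl-CoA. The first enzymes form mevalonate and turn it into isoprenoid diphosphates. Farnesyl diphosphate is a branch point between squalene, the committed precursor of sterols, and the longer isoprenoids that are attached to proteins. Lanosterol, the first sterol, is trimmed and rearranged by a chain of demethylases, reductases and isomerases. Cholesterol taken up in lipoproteins reaches the same pool through the lysosome, where esters are cleaved and the free sterol is exported by NPC2 and NPC1. Many genes of synthesis are switched together by the sterol-sensing SREBP transcription factors, which in well-studied promoters act beside the CCAAT-binding factor NF-Y and the GC-box-binding factor Sp1. The liver is a main site of cholesterol synthesis, and the route is a classic example of end-product control.

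Most of the 30 genes were lower in the LAPTM4B-knockdown libraries, in both branches of the pathway. Of the 30, 25 were lower, 2 were higher (LBR and SOAT1), and 3 did not pass an adjusted p of 0.05 (PMVK, SC5D and OSBPL1A) by edgeR's quasi-likelihood test. Thus 83.3% of these genes were called lower, against 27.9% of all 16354 genes tested, and 6.67% were called higher, against 28.0% of all genes tested. Calls in either direction covered 55.9% of all genes tested. The median log2 change (knockdown over control) was -0.49 for the 30 genes and 0.01 for all genes, whose 5th to 95th percentiles ran from -1.27 to 0.88. A fall of at least 2-fold was called for 9 of the 30, against 7.42% of all genes, and no member had a rise of at least 2-fold, which was called for 3.90% of all genes.

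The median fall was larger for the synthesis enzymes than for the transport genes, a difference that was not tested. Among the 20 enzymes the median log2 change was -0.75, with 17 lower, 1 higher and 2 not passing. Among the 10 transport genes the median was -0.28, with 8 lower, 1 higher and 1 not passing. Summed over the 20 enzymes, expression was 403, 412 and 417 FPKM in knockdown and 743, 758 and 761 FPKM in control libraries, or 54.4% of the control level. The transport genes summed to 156, 162 and 161 FPKM in knockdown and 210.3, 213 and 211 FPKM in control libraries, or 75.5% of the control level. No knockdown library reached a control library in either sum. By single genes, all 3 knockdown libraries lay below all 3 control libraries for 24 of the 30, against 25.7% of all genes tested, and above them for 4, against 36.0%. Only SC5D and STARD3 had groups that overlapped.

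**Figure D1:**
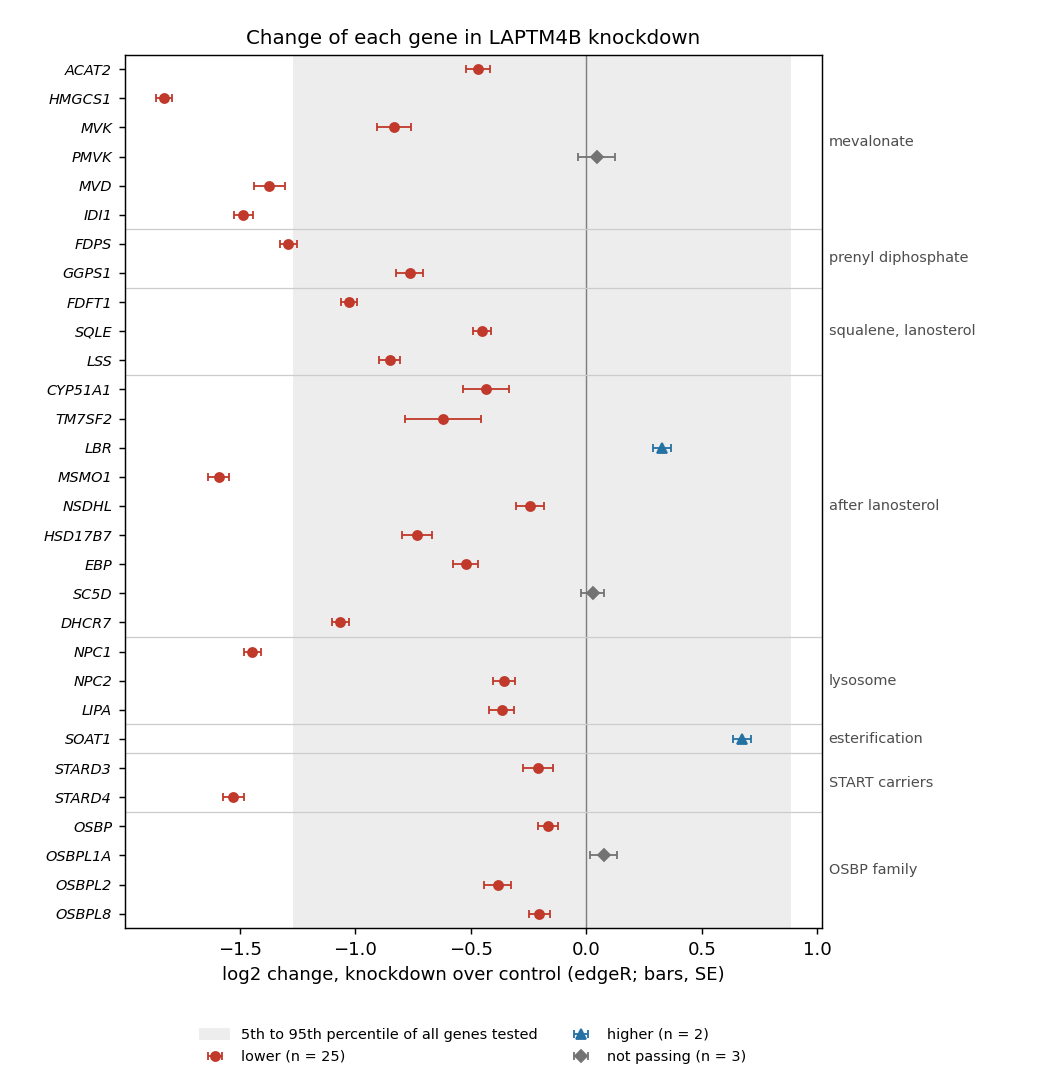
Log2 change, knockdown over control, of each of the 30 genes, in pathway order within the synthesis and transport branches. Points are edgeR estimates with their standard errors, symbols mark called lower, called higher or not passing at an adjusted p of 0.05, and the grey band spans the 5th to 95th percentiles of all genes tested. HMGCS1 is the lowest at -1.83 and SOAT1 the highest at 0.67.

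**Figure D2:**
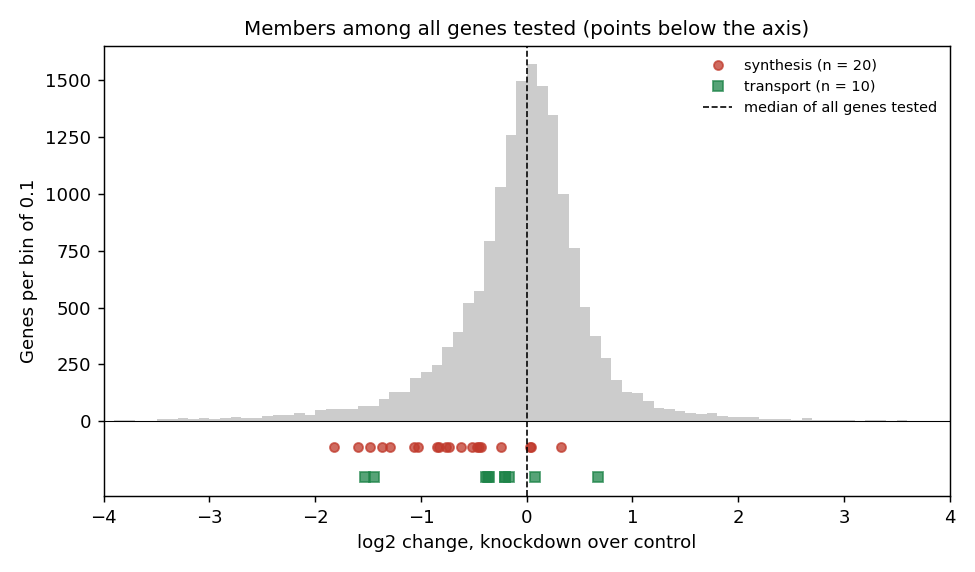
Distribution of log2 changes (knockdown over control) over all 16354 genes tested, as counts of genes per bin of 0.1, with the 20 synthesis and 10 transport genes marked under the histogram. The axis runs from -4 to 4 and leaves out 71 of the genes tested, none of them among the 30. The 30 genes have a median of -0.49 and all genes a median of 0.01.

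The spread between libraries of a group was small next to most of these differences. Coefficients of variation of FPKM over 3 libraries had a median of 3.55% in knockdown (0.600% to 12.3%) and 3.60% in control libraries (0.0502% to 9.90%). The smallest was that of IDI1 in control libraries and the largest that of CYP51A1 in knockdown libraries, a gene with 202 to 417 counts per library. The order of levels, which FPKM allows because it is per length, also changed. In control libraries HMGCS1 led with 129.9 FPKM on average, followed by FDFT1 (94.5), FDPS (88.8) and MSMO1 (76.3), and the libraries of these 4 genes did not overlap. In knockdown libraries FDFT1 led with 48.4 FPKM, followed by EBP (40.3), HMGCS1 (38.2) and FDPS (37.9), of which the last pair overlapped. TM7SF2 was lowest in both groups. The deposited exon lengths are 0.783 to 4.09 times those of the principal transcript in GENCODE 29. With the principal transcript's length, an option chosen after seeing the data, HMGCS1 again led and TM7SF2 was again lowest in control libraries, but FDPS took the lead in knockdown libraries, with 95.3 FPKM against 94.5 for FDFT1 and 72.2 for HMGCS1. Fold changes between groups are not touched by this choice.

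**Figure D3:**
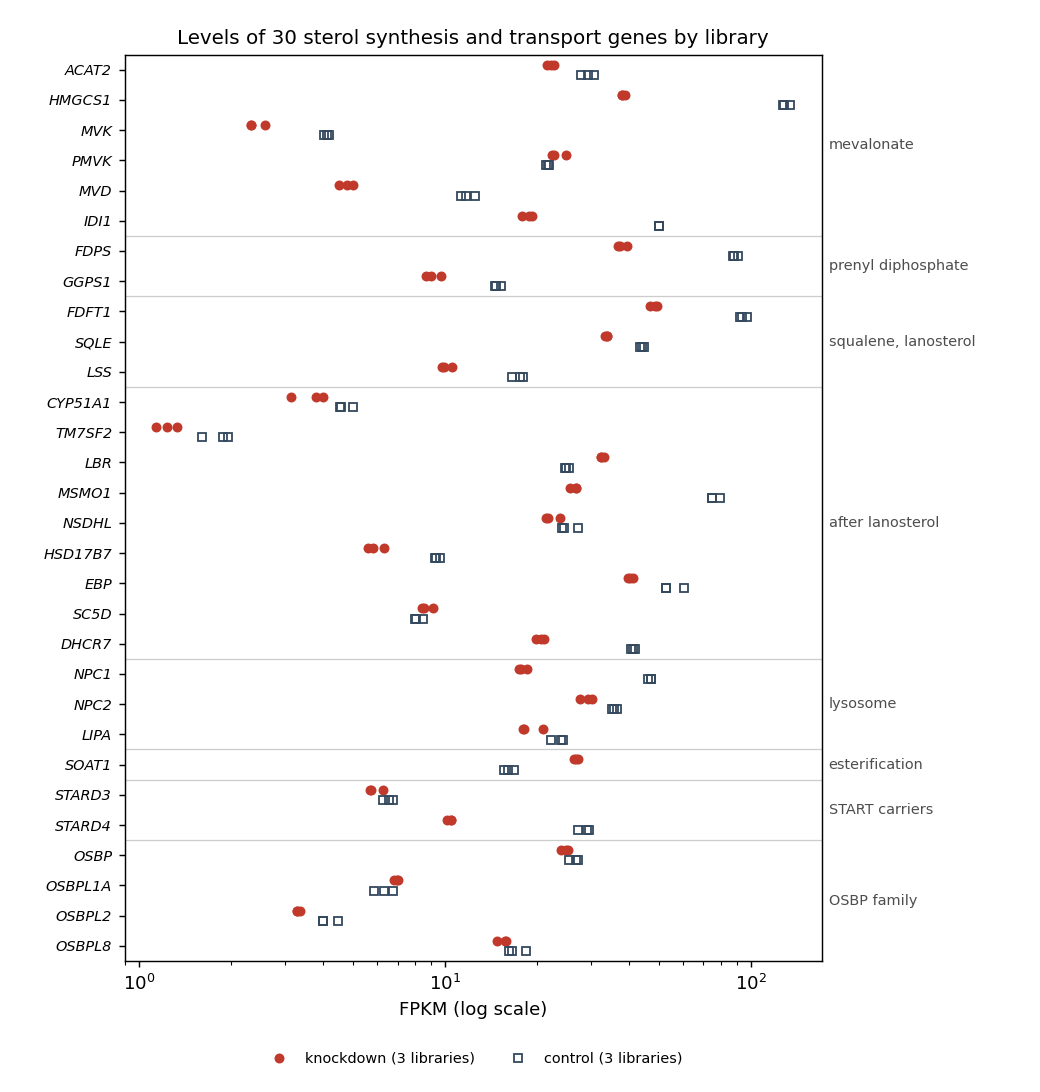
FPKM of the 30 genes in each of the 6 libraries on a log axis, knockdown libraries (filled circles) drawn just above control libraries (open squares) in each gene's row. Each symbol is 1 library. HMGCS1 lies at 37.8 to 38.9 in knockdown and 127 to 134 in control libraries, and LBR and SOAT1 lie higher in knockdown libraries.

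Promoters are shown for the 6 genes with the largest falls, HMGCS1, MSMO1, STARD4, IDI1, NPC1 and MVD, and for the 2 called higher, SOAT1 and LBR, so that the ends of the range of changes can be read side by side. The sequences are RefSeq windows on GRCh38.p14, from 250 bases before to 50 bases after an annotated start, written 5′ to 3′ on the gene's strand, using the window nearest to the gene's start in the deposited table. Capitals mark the CCAAT pentamer that NF-Y recognises, or its reverse complement ATTGG.
HMGCS1 window, chr5:43313363-43313662 on the minus strand, 2 copies.
HMGCS1: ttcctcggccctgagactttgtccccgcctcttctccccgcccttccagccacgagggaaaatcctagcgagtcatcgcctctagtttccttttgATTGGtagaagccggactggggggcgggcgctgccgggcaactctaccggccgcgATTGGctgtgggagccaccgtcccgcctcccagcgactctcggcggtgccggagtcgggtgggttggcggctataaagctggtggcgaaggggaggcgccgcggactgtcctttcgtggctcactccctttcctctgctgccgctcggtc
MSMO1 window, chr4:165327419-165327718 on the plus strand, 4 copies.
MSMO1: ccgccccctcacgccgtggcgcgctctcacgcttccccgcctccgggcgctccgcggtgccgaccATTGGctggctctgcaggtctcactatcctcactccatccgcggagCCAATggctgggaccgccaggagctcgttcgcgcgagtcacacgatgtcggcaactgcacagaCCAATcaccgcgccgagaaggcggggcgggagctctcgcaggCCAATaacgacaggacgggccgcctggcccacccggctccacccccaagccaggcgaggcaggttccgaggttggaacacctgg
STARD4 window, chr5:111512486-111512785 on the minus strand, 2 copies.
STARD4: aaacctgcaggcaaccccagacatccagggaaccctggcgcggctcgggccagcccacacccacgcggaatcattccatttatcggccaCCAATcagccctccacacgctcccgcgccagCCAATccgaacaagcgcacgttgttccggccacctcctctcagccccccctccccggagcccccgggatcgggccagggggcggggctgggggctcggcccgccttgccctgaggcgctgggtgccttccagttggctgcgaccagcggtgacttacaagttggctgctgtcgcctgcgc
IDI1 window, chr10:1049070-1049369 on the minus strand, 2 copies.
IDI1: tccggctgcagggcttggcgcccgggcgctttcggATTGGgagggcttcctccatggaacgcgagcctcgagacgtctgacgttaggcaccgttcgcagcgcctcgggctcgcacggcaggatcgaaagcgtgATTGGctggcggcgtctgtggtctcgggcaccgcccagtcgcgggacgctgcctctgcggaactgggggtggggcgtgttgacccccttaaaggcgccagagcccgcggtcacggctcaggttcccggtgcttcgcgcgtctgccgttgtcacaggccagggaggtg
NPC1 window, chr18:23586457-23586756 on the minus strand, 0 copies of the pentamer.
NPC1: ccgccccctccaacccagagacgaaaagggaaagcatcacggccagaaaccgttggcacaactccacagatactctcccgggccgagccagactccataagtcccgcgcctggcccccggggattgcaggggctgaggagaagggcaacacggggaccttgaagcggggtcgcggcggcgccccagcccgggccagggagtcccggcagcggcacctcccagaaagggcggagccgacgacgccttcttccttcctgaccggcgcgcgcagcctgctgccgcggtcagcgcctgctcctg
MVD window, chr16:88663042-88663341 on the minus strand, 3 copies.
MVD: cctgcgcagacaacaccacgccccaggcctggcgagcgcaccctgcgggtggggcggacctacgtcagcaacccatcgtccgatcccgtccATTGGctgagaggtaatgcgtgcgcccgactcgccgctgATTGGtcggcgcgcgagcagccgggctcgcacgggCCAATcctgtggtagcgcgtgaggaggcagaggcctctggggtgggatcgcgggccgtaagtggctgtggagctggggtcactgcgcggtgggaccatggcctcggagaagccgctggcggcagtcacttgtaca
SOAT1 window, chr1:179293547-179293846 on the plus strand, 1 copy.
SOAT1: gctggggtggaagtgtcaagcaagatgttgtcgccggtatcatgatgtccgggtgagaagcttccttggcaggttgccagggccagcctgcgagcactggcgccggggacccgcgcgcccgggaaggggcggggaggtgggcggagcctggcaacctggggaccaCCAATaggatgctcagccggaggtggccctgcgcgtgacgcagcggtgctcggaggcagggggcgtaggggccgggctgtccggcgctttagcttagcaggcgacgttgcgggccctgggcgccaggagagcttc
LBR window, chr1:225428772-225429071 on the minus strand, 0 copies of the pentamer.
LBR: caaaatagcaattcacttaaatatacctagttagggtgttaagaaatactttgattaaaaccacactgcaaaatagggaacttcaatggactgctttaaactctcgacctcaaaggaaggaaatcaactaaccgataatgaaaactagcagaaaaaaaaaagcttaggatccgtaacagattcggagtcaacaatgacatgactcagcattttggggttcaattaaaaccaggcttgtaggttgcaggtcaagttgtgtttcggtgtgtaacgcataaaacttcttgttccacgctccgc

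Windows were matched by symbol for 27 of the 30 genes, all but ACAT2, FDFT1 and SQLE, with 40 windows in all, since some genes have several starts. At least 1 window of 21 of the 27 genes, or 77.8%, held CCAAT on either strand, against 43.1% of the 11220 genes tested that had a window and 39.7% of all 27305 genes with a window. Several copies were also common, since 14 of the 27 genes, or 51.9%, held at least 2, against 16.2% of the genes tested. By branch, 14 of 17 synthesis genes and 7 of 10 transport genes held it. By outcome, 19 of the 22 genes called lower held it and 2 of the 5 genes that were higher or did not pass. Of the printed windows, that of MSMO1 held 4 copies, that of MVD 3, those of HMGCS1, STARD4 and IDI1 2 each, that of SOAT1 1, and those of NPC1 and LBR none. The GC box core GGGCGG was in 25 of 27 genes (92.6%), against 75.3% of the genes tested. The E-box CACGTG was in 4 of 27 (14.8%), against 12.4%. TCACNCCAC, one form of the sterol regulatory element, was in 0 of 27, against 1.45%, which says only that these letters are not in these windows. All 4 strings were searched on both strands, and none of them contains another. Each gene was scored by its window with the most copies, so genes with several windows had more chances. The 27 genes had 40 windows, and all 27305 genes had 35116. The windows of the 11220 genes tested were not counted separately, so this limit is not measured for the comparison with them. The strings are descriptions of the windows and no binding was measured here.

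Of the 6 enzymes from acetyl-CoA to the isoprenoid diphosphates, 5 fell. ACAT2 (chr6:159762045-159779112), the cytosolic thiolase that joins acetyl-CoA units, had 21.5, 22.2 and 22.7 FPKM in knockdown and 27.9, 30.8 and 29.4 FPKM in control libraries. All knockdown libraries were below all control libraries (log2 change -0.47, SE 0.05, edgeR adjusted p 1.45e-08). HMGCS1 (chr5:43287470-43313512), the cytosolic HMG-CoA synthase, had 37.9, 38.9 and 37.8 FPKM in knockdown and 128, 134 and 127 FPKM in control libraries. The groups lay far apart, and the mean level fell by 70.6% (log2 change -1.83, SE 0.03, edgeR adjusted p 7.68e-25). It was the largest fall among the 30 genes, although 431 of the other genes tested had a lower log2 change. MVK (chr12:109573255-109598125), which phosphorylates mevalonate, had 2.33, 2.58 and 2.32 FPKM in knockdown and 4.11, 4.18 and 4.03 FPKM in control libraries, again without overlap (log2 change -0.83, SE 0.07, edgeR adjusted p 1.89e-10).

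PMVK (chr1:154924740-154936719) adds the next phosphate and was the exception among the early enzymes. It had 22.4, 22.7 and 25.0 FPKM in knockdown and 21.4, 21.7 and 22.0 FPKM in control libraries. The knockdown libraries lay just above the control libraries on this scale, but the difference did not pass (log2 change 0.05, 95% interval -0.11 to 0.20, edgeR adjusted p 0.657). MVD (chr16:88651935-88663161), which decarboxylates mevalonate diphosphate to isopentenyl diphosphate, had 5.02, 4.52 and 4.77 FPKM in knockdown and 12.6, 11.7 and 11.3 FPKM in control libraries. Knockdown libraries were all lower, 2.59-fold in the fit (log2 change -1.37, SE 0.07, edgeR adjusted p 1.19e-15). IDI1 (chr10:1039152-1049119), the isomerase that makes dimethylallyl diphosphate, had 17.9, 19.3 and 18.9 FPKM in knockdown and 50.2, 50.1 and 50.2 FPKM in control libraries. The control libraries were nearly equal and all knockdown libraries were well below them (log2 change -1.48, SE 0.04, edgeR adjusted p 3.64e-21). The median log2 change of these 6 genes was -1.10, with 5 of them lower.

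Both prenyl diphosphate synthases were lower. FDPS (chr1:155308748-155320666), which makes farnesyl diphosphate, had 36.9, 37.5 and 39.3 FPKM in knockdown and 88.2, 91.0 and 87.3 FPKM in control libraries. Every knockdown library was below every control library (log2 change -1.29, SE 0.04, edgeR adjusted p 7.56e-21). GGPS1 (chr1:235327350-235344532) makes geranylgeranyl diphosphate, the lipid added to Rab proteins, and had 8.99, 8.65 and 9.71 FPKM in knockdown and 14.7, 15.2 and 14.6 FPKM in control libraries. These groups were also separate (log2 change -0.76, SE 0.06, edgeR adjusted p 1.99e-11). FDPS and PMVK lie on the same chromosome, 372029 bases apart, and differed in log2 change (-1.29 and 0.05).

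The squalene steps all fell. FDFT1 (chr8:11795573-11839304), squalene synthase, which commits farnesyl diphosphate to sterols, had 46.8, 49.5 and 48.8 FPKM in knockdown and 93.8, 92.4 and 97.3 FPKM in control libraries. All knockdown libraries were far below the control libraries, 2.04-fold in the fit (log2 change -1.03, SE 0.04, edgeR adjusted p 8.61e-19). SQLE (chr8:124998497-125022283), squalene epoxidase, a rate-limiting enzyme of the later route, had 33.8, 33.8 and 33.4 FPKM in knockdown and 43.5, 44.0 and 44.9 FPKM in control libraries. The libraries of each group were close to each other and the groups did not overlap, with a smaller fall than that of FDFT1 (log2 change -0.45, SE 0.04, edgeR adjusted p 1.19e-10). LSS (chr21:46188141-46228824), which cyclises oxidosqualene to lanosterol, had 9.91, 9.77 and 10.5 FPKM in knockdown and 18.0, 17.6 and 16.6 FPKM in control libraries, all knockdown values lower (log2 change -0.85, SE 0.05, edgeR adjusted p 1.22e-14). The ratio of FDFT1 to GGPS1, the enzymes that compete for farnesyl diphosphate, was 5.32 ± 0.362 in knockdown and 6.36 ± 0.291 in control libraries (FPKM over FPKM, mean ± SD, n = 3 each). Its log2 difference was -0.26 (SE 0.07), with no overlap between the groups.

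Of the 9 enzymes that act on lanosterol and its products 7 were lower and LBR was higher, SC5D did not pass, and the median log2 change was -0.52. CYP51A1 (chr7:92084987-92134803), the lanosterol demethylase of the cytochrome P450 family, had 3.14, 3.80 and 4 FPKM in knockdown and 4.55, 4.59 and 5 FPKM in control libraries. The groups did not overlap, but this was one of the least abundant enzymes and the most variable in the knockdown group (log2 change -0.43, SE 0.10, edgeR adjusted p 0.00051). Its pseudogene copies CYP51A1P2 and CYP51A1P1 held 6.96% and 3.65% as many counts as CYP51A1 over the 6 libraries. How reads shared with these copies were assigned was not tested. TM7SF2 (chr11:65111845-65116384) and LBR (chr1:225401502-225428925) both encode sterol reductases that remove the double bond left by this demethylation, and they went opposite ways. TM7SF2 had 1.23, 1.14 and 1.33 FPKM in knockdown and 1.88, 1.61 and 1.95 FPKM in control libraries, on 59 to 133 counts per library. All knockdown values were lower (log2 change -0.62, SE 0.16, edgeR adjusted p 0.00224). LBR, which is also the lamin B receptor of the inner nuclear membrane, had 33.2, 32.4 and 32.5 FPKM in knockdown and 24.6, 25.4 and 24.9 FPKM in control libraries. All knockdown values were higher (log2 change 0.33, SE 0.04, edgeR adjusted p 3.94e-08).

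LBR was the more abundant of this pair in every library, so the sum of both was higher in knockdown libraries, at 33.5 to 34.4 FPKM, against 26.5 to 27.0 FPKM in control libraries. TM7SF2 made up 3.40% to 3.93% of that sum in knockdown and 5.96% to 7.25% in control libraries. The ratio of TM7SF2 to LBR was 0.0378 ± 0.00294 in knockdown and 0.0727 ± 0.00815 in control libraries (mean ± SD, n = 3 each), a log2 difference of -0.94 (SE 0.12). It was lower in every knockdown library than in any control library.

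The next enzymes remove methyl groups and move the remaining double bonds. MSMO1 (chr4:165327667-165343164), the methyl sterol oxidase that starts this removal, had 25.6, 26.8 and 26.9 FPKM in knockdown and 74.5, 74.9 and 79.4 FPKM in control libraries. Knockdown libraries were about 3.01-fold lower, the largest fall after that of HMGCS1 (log2 change -1.59, SE 0.04, edgeR adjusted p 2.56e-21). NSDHL (chrX:152830967-152869729), the decarboxylating dehydrogenase that follows, had 21.7, 21.4 and 23.7 FPKM in knockdown and 24.2, 27.3 and 24.5 FPKM in control libraries. The groups came close to each other without overlap (log2 change -0.24, SE 0.06, edgeR adjusted p 0.00132), and the call was lost with limma on log2(FPKM + 0.1) without a filter on low values (adjusted p 0.0898). HSD17B7 (chr1:162790702-162812823), the ketosteroid reductase of the same steps, had 5.62, 5.80 and 6.30 FPKM in knockdown and 9.38, 9.63 and 9.26 FPKM in control libraries. All knockdown values were lower (log2 change -0.73, SE 0.06, edgeR adjusted p 2.59e-10), and the copy HSD17B7P2 held 8.80% as many counts as HSD17B7 over the 6 libraries.

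EBP (chrX:48521799-48528716), the sterol isomerase known as emopamil binding protein, had 40.2, 41.2 and 39.6 FPKM in knockdown and 52.9, 52.9 and 60.4 FPKM in control libraries. Its groups were separate, with 1 control library above the other 2 (log2 change -0.52, SE 0.05, edgeR adjusted p 5.82e-09). SC5D (chr11:121292681-121313410), the desaturase of the late route, had 8.56, 9.11 and 8.43 FPKM in knockdown and 8.07, 7.97 and 8.47 FPKM in control libraries. The groups overlapped and the difference did not pass (log2 change 0.03, 95% interval -0.07 to 0.12, edgeR adjusted p 0.654). DHCR7 (chr11:71428193-71452868), the reductase that turns dehydrocholesterol into cholesterol, had 19.8, 20.7 and 21.1 FPKM in knockdown and 40.7, 41.2 and 41.8 FPKM in control libraries. All knockdown values were lower, 2.09-fold in the fit (log2 change -1.06, SE 0.04, edgeR adjusted p 9.32e-19). SC5D was thus the only 1 of these 9 enzymes without a call.

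In the lysosome, all 3 genes of cholesterol release were lower, NPC1 most. NPC1 (chr18:23506184-23586506), the lysosomal membrane protein that exports cholesterol and is mutated in Niemann-Pick type C disease, had 17.7, 17.5 and 18.6 FPKM in knockdown and 46.1, 47.2 and 47.0 FPKM in control libraries. Knockdown libraries formed a tight group far below the control libraries, with a fall of 61.7% (log2 change -1.45, SE 0.04, edgeR adjusted p 2.71e-22). NPC2 (chr14:74476192-74494177), the soluble protein that hands cholesterol to NPC1, had 27.6, 29.5 and 30.2 FPKM in knockdown and 36.5, 35.1 and 35.6 FPKM in control libraries. The groups were separate, but closer than for NPC1 (log2 change -0.36, SE 0.05, edgeR adjusted p 3.79e-07). LIPA (chr10:89213569-89414557), lysosomal acid lipase, which cleaves cholesteryl esters, had 18.1, 21.0 and 18.1 FPKM in knockdown and 24.0, 22.2 and 24.3 FPKM in control libraries. Knockdown values were all lower, although 1 of them came within 1.27 FPKM of a control library (log2 change -0.37, SE 0.05, edgeR adjusted p 1.91e-06).

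SOAT1 (chr1:179293714-179358680), the acyltransferase of the endoplasmic reticulum that stores cholesterol as esters, went the other way. It had 26.4, 26.9 and 27.3 FPKM in knockdown and 15.7, 16.8 and 16.0 FPKM in control libraries. All knockdown values were higher, 1.59-fold in the fit (log2 change 0.67, SE 0.04, edgeR adjusted p 7.95e-14), and 1339 of the genes tested had a higher log2 change. SOAT2, the other sterol acyltransferase, had no count in any library. The ratio of SOAT1 to LIPA, ester formation over ester cleavage, was 1.42 ± 0.117 in knockdown and 0.689 ± 0.0577 in control libraries, a log2 difference of 1.04 (SE 0.10). The ratio of NPC1 to NPC2 was 0.616 ± 0.0232 in knockdown and 1.31 ± 0.0427 in control libraries, a log2 difference of -1.09 (SE 0.04). NPC1 was thus above NPC2 in all control libraries and below it in all knockdown libraries on the deposited FPKM scale. With the principal transcript's length the means were 33.7 FPKM for NPC1 and 72.6 FPKM for NPC2 in knockdown libraries, and 88.0 FPKM for NPC1 and 89.2 FPKM for NPC2 in control libraries, so the order in control libraries depends on the length used.

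The START-domain carriers differed from each other. STARD4 (chr5:111496033-111512590), a soluble cholesterol carrier of the cytosol, had 10.2, 10.4 and 10.5 FPKM in knockdown and 29.6, 29.2 and 27.1 FPKM in control libraries. The knockdown libraries lay far below the control libraries (log2 change -1.53, SE 0.05, edgeR adjusted p 1.72e-20). STARD3 (chr17:39637090-39664201), which tethers late endosomes to the endoplasmic reticulum, had 5.72, 5.69 and 6.27 FPKM in knockdown and 6.57, 6.79 and 6.26 FPKM in control libraries. Its highest knockdown library lay just above its lowest control library, so the groups overlapped. The difference passed in edgeR (log2 change -0.21, SE 0.07, edgeR adjusted p 0.00789) and not with limma on log2(FPKM + 0.1), where the adjusted p was 0.064. The ratio of STARD4 to STARD3 was 1.76 ± 0.0827 in knockdown and 4.38 ± 0.104 in control libraries, a log2 difference of -1.31 (SE 0.04).

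For each of the 5 ratios the 3 knockdown libraries did not overlap the 3 control libraries. Separate groups were common in these data. Among all genes tested, taken singly, knockdown libraries lay below control libraries for 25.7% and above them for 36.0%. The share among ratios of other gene pairs was not computed. The exact two-sided permutation p was 0.1 for each of the 5 ratios, also after adjustment over the 5. That is the smallest p that 3 against 3 libraries can give and cannot pass 0.05.

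**Figure D4:**
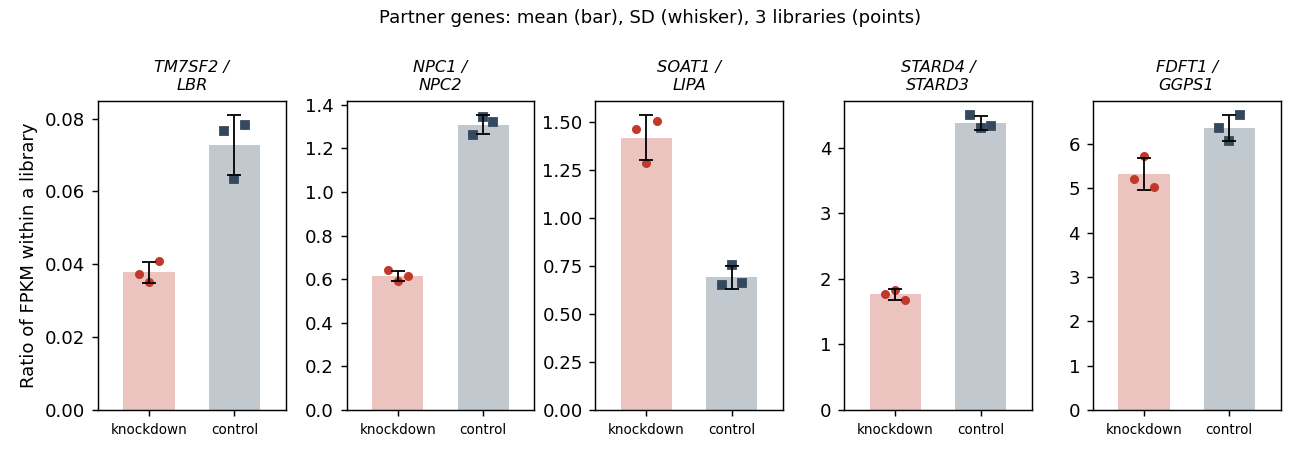
Ratio of FPKM between partner genes in each library on linear axes from 0, knockdown libraries left of control libraries, for TM7SF2 over LBR, NPC1 over NPC2, SOAT1 over LIPA, STARD4 over STARD3 and FDFT1 over GGPS1. Bars are means, whiskers are SD and each point is 1 library (n = 3 per group). SOAT1 over LIPA is higher in knockdown libraries and the other ratios are lower.

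Among the 4 genes of the oxysterol-binding family the median log2 change was -0.18, with 3 of them lower. OSBP (chr11:59574398-59615774) exchanges sterol for a phosphoinositide between the endoplasmic reticulum and the Golgi. It had 25.3, 24.9 and 24.0 FPKM in knockdown and 25.5, 26.9 and 27.3 FPKM in control libraries. The highest knockdown library lay just below the lowest control library (log2 change -0.16, SE 0.04, edgeR adjusted p 0.00207). OSBPL8 (chr12:76351797-76559809), a lipid exchanger at contacts between the endoplasmic reticulum and the plasma membrane, had 14.8, 15.9 and 15.7 FPKM in knockdown and 16.6, 18.4 and 16.2 FPKM in control libraries. The groups again only just missed each other (log2 change -0.20, SE 0.04, edgeR adjusted p 0.000369). With limma on log2(FPKM + 0.1) neither passed, at adjusted p 0.0581 for OSBP and 0.0685 for OSBPL8.

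OSBPL2 (chr20:62231922-62296213), a related lipid-transfer protein, had 3.37, 3.28 and 3.29 FPKM in knockdown and 3.98, 4.46 and 4 FPKM in control libraries. All knockdown values were lower (log2 change -0.38, SE 0.06, edgeR adjusted p 3.26e-06). OSBPL1A (chr18:24162045-24397880), which acts on late endosomes as a sterol sensor, had 6.84, 6.99 and 7.02 FPKM in knockdown and 5.87, 6.33 and 6.76 FPKM in control libraries. The knockdown libraries lay above the control libraries, but the difference did not pass (log2 change 0.07, 95% interval -0.04 to 0.19, edgeR adjusted p 0.289). Without control replicate 3 it did (log2 change 0.14, edgeR adjusted p 0.043). OSBPL1A lies on the same chromosome as NPC1, 575539 bases away, where the log2 change was -1.45.

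Some members share genomic sequence with a neighbour. Whether the authors' counting used strand is not stated in the labels. Reads of overlapping genes may therefore not be separated. An expressed gene (at least 1 CPM) overlaps 13 of the 30 members, and 15 of the 30 have the same coordinates in GENCODE 29 as in the deposited table. In GENCODE 29, GGPS1 shares 37.3% of its exonic bases with a gene labelled TBCE on the same strand. The deposited spans of both overlap by 15963 bases, and the gene labelled TBCE held 36.5% as many counts as GGPS1. Its level was lower too (2.68 FPKM in knockdown and 3.81 FPKM in control libraries, log2 change -0.56, edgeR adjusted p 1.92e-05). FDPS shares 18.6% with the antisense RUSC1-AS1, whose log2 change was -1.73 and whose count was 8.56% of that of FDPS. IDI1 shares 14.8% with the antisense IDI2-AS1, whose log2 change was -2.10 and whose count was 4.35% of that of IDI1. MVK shares 4.72% with MMAB, a cobalamin-pathway gene read from the opposite strand, which was also lower (5.37 FPKM in knockdown and 9.99 FPKM in control libraries, log2 change -0.95, edgeR adjusted p 1.88e-12). NPC1 shares 5.98% with RMC1, whose log2 change was -0.25. For ACAT2, SOD2 (mitochondrial superoxide dismutase) on the opposite strand overlaps the deposited gene by 485 bases, without shared exons in GENCODE 29. SOD2 held 652% as many counts as ACAT2 and was lower, with 15.1 FPKM in knockdown and 32.9 FPKM in control libraries (log2 change -1.19, edgeR adjusted p 1.28e-20). TCP1, the other neighbour of ACAT2, shares 9.23% and did not pass (log2 change 0.04, edgeR adjusted p 0.401). Within the deposited span of LIPA, on the opposite strand, lie IFIT1, IFIT2 and IFIT3, interferon-induced genes with 99.7%, 128% and 94.4% as many counts as LIPA. IFIT1 was lower, with 17.1 FPKM in knockdown and 27.6 FPKM in control libraries (log2 change -0.75, edgeR adjusted p 5.99e-14). IFIT3 was lower too, with 16.2 FPKM in knockdown and 22.5 FPKM in control libraries (log2 change -0.53, edgeR adjusted p 1.01e-10), and IFIT2 did not pass (log2 change -0.04, edgeR adjusted p 0.478). In GENCODE 29 IFIT2 shares 1.32% of the exonic bases of LIPA, and IFIT1 and IFIT3 share none. TM7SF2 shares 0.469% with VPS51 on the same strand, which held 858% as many counts and was lower (log2 change -0.17, edgeR adjusted p 0.024). AKAP9, opposite CYP51A1 without shared exons, held 781% as many counts and did not pass (log2 change -0.16, edgeR adjusted p 0.0563). ARID4B, opposite GGPS1, shares 3.62%, held 224% as many counts and was higher (log2 change 0.17, edgeR adjusted p 0.00104). The part of shared reads in the members' changes was not tested.

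Neighbours that start head to head with a member, on the opposite strand within 1000 bases and with little or no overlap, did not all move with it. Pairs with a longer overlap at their starts were left out of this set, among them MVK with MMAB, NPC2 with ISCA2 and GGPS1 with ARID4B. Of these neighbours MMAB (log2 change -0.95) and ISCA2 (log2 change -0.29, edgeR adjusted p 0.0226) were lower, and ARID4B was higher (log2 change 0.17). WDR37, read away from IDI1 from a start 419 bases away, did not pass (log2 change -0.20, edgeR adjusted p 0.116), and neither did NADSYN1 beside DHCR7 (log2 change -0.07, edgeR adjusted p 0.395). CETN2, a centrosome gene beside NSDHL, was higher, with 21.9 ± 1.97 FPKM in knockdown and 17.6 ± 0.335 FPKM in control libraries (SD, n = 3 each; log2 change 0.25, edgeR adjusted p 0.00327). IFIT5, of the same family as the genes inside LIPA, was likewise higher, with a log2 change of 0.44 (edgeR adjusted p 1.66e-06). MCM3AP-AS1 beside LSS was lower, at 2.39 FPKM in knockdown and 3.54 FPKM in control libraries (log2 change -0.63, edgeR adjusted p 3.41e-08). SNAI3-AS1 beside MVD was lower too, at 0.253 FPKM in knockdown and 0.45 FPKM in control libraries.

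Genes of the same processes outside the 30 were called in each direction at shares not far from those of all genes tested. Of 42 such genes on a list drawn up for this comparison, 36 were tested, of which 14 were higher, 11 were lower and 11 did not pass. Thus 38.9% were higher and 30.6% lower, against 28.0% and 27.9% of all genes tested, and the median log2 change was 0.09. Among 9 tested genes of prenyl, ubiquinone and dolichol synthesis and prenyl transfer 3 (33.3%) were higher and 2 (22.2%) lower. Among 19 tested genes of sterol transport 8 (42.1%) were higher and 6 (31.6%) lower. Against the same shares of all genes tested, these counts single out neither group. The lower ones included all 3 GRAMD1 genes on the list, whose proteins carry cholesterol from the plasma membrane to the endoplasmic reticulum.

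GRAMD1B had 8.26 ± 0.306 FPKM in knockdown and 20.9 ± 0.309 FPKM in control libraries (log2 change -1.40, SE 0.04, edgeR adjusted p 2.2e-21). GRAMD1C, a gene of low level, had 0.380 ± 0.0520 FPKM in knockdown and 1.45 ± 0.229 FPKM in control libraries (log2 change -1.98, SE 0.17, edgeR adjusted p 1.18e-10). GRAMD1A, named after its values were seen because it completes the set, had 9.73 ± 0.257 FPKM in knockdown and 13 ± 0.326 FPKM in control libraries (log2 change -0.48, SE 0.05, edgeR adjusted p 4.9e-09). All 3 had separate groups. Of the oxysterol-binding family, OSBP2 had 24.1 ± 0.803 FPKM in knockdown and 39.5 ± 1.71 FPKM in control libraries (log2 change -0.77, SE 0.04, edgeR adjusted p 9.52e-15). OSBPL5 was likewise lower (log2 change -0.89), whereas OSBPL3 and OSBPL11 were higher (log2 changes 0.30 and 0.33). The family thus moved in both directions.

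Among genes that draw on the same isoprenoids, DHDDS, a subunit of the dolichol-forming enzyme, had 7.38 ± 0.115 FPKM in knockdown and 4.88 ± 0.225 FPKM in control libraries (log2 change 0.54, SE 0.06, edgeR adjusted p 1.8e-08). It was higher in knockdown libraries, as were VAPB, an endoplasmic reticulum anchor for lipid-transfer proteins (log2 change 0.28), and ERG28, known in yeast as a scaffold of sterol demethylation (log2 change 0.19, edgeR adjusted p 0.00393). The call for ERG28 was lost without control replicate 1, at adjusted p 0.0561. Values after ± for the genes outside the 30 are SD with n = 3.

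**Figure D5:**
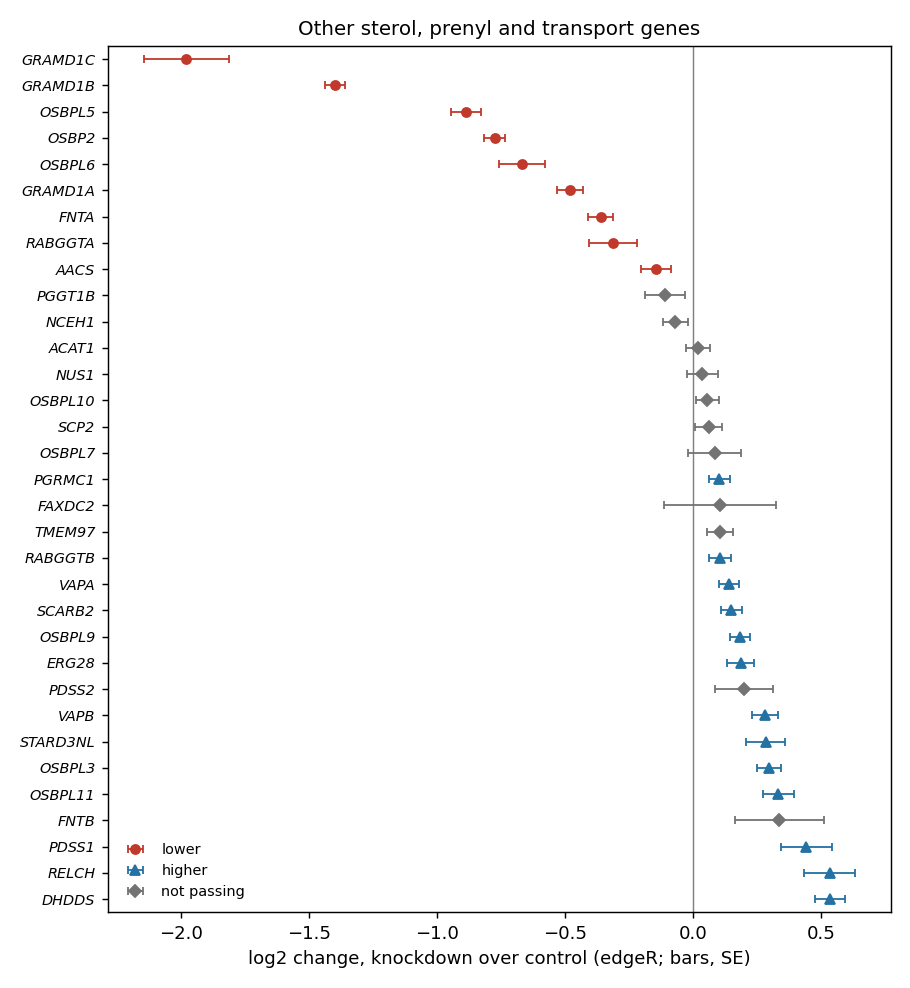
Log2 change, knockdown over control, of 33 of the 36 tested sterol and isoprenoid genes outside the 30, sorted by the change. Points are edgeR estimates with standard errors, and colours mark called lower, called higher or not passing. GRAMD1C has the most negative value at -1.98 and DHDDS the most positive of those shown at 0.54.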

How the data were processed

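Total RNA was sequenced from 6 libraries made with an Illumina TruSeq kit, per the labels' protocols, and the submitters' processing notes name hg38 as the build. For the aligner, counting program, annotation release and strand the entry is the same: not given in the sources used here. The deposited table held whole-number counts, FPKM values and, as an other quantity, each gene's exonic size in bases, per the file headers. FPKM recomputed from the authors' counts, sizes and library totals matched 100% of the deposited values within 0.0051. FPKM are scaled to raw totals, whereas log2 changes use TMM factors (0.970 to 1.03), so the 2 can differ slightly.

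Groups came from the sample titles. The two-sided quasi-likelihood F test of edgeR 4.0.16 (R 4.3.3) was applied to the counts after TMM scaling and filterByExpr. Its p-values were adjusted by Benjamini and Hochberg's method across all 16354 tested genes, with 0.05 as threshold. All 30 members passed the filter. The SE of a log2 change is its size over the square root of F, and the 95% intervals are normal ones. Ratios of partner genes were compared with an exact permutation test. Libraries of a group differed beyond sampling noise (chi-square of 1.92 to 4.84 per gene). The members and gene lists were chosen with earlier results of these data known. Named were all 30 members, LAPTM4B, up to 5 other genes higher and 5 lower with the smallest adjusted p, SOAT2, ERG28, marker genes and near-copies. Some genes that this rule picks are not reported here. Overlapping genes were found by the deposited coordinates and near-copies by the deposited symbols. Shared exonic bases and the principal transcript came from GENCODE 29, which places all 30 members on the deposited chromosome. Alternatives were DESeq2 1.42.0, other size factors, no filter, a replicate block, each library left out, and limma 3.58.1 on log2(FPKM + 0.1) with a filter on low values, on log2(FPKM + 1), and without the filter. On simulated counts edgeR was tested for recovery of known changes. The precision covers counting error and the spread between libraries only. Tables and plots used Python 3.11.15, pandas 2.3.3 and matplotlib 3.10.9.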

Additional observations from a re-analysis of the deposited data

How the results depend on the processing

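Every call count kept its direction and stayed within 1.5 times the value reported. Members called lower numbered 25 under DESeq2, other size factors, no count filter and each library left out, 22 with limma on log2(FPKM + 0.1) or log2(FPKM + 1), and 21 with limma without a filter. Members called higher numbered 2 in all of these and 3 without control replicate 3. With the replicate block 25 members were called lower and 2 higher, the same numbers as without it. Deviations of same-numbered libraries from their group means correlated at 0.0349, -0.0639 and -0.0759 across genes, so no shared deviation was seen. Whether same-numbered libraries were prepared together cannot be told from these values. Of 390 refits of single members 379 gave the same call, 10 lost one (STARD3, OSBP, OSBPL8 and NSDHL, all with limma on FPKM) and 1 gained one (OSBPL1A). The other sterol genes called higher numbered 10 to 16 and those called lower 9 to 12. LAPTM4B stayed lower, with log2 changes of -0.56 to -0.46. The ratio of TM7SF2 to LBR differed by -0.71 (log2) with a pseudocount of 1. TM7SF2 and CYP51A1 had the fewest counts among the 30 and the least precise changes.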
